A study of Mus musculus with 30 samples.

Results

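The genes described here are 9 genes that the medium spiny neurons of the striatum have in common, whichever output pathway they belong to. Their levels were followed in the striatum and in the subventricular zone (SVZ) beside it. They are Gnal, Adcy5, Pde10a, Pde1b, Ppp1r1b, Rgs9, Rasd2, Bcl11b and Foxp1, chosen by name for their known place in these neurons, with earlier results of these data known. They are 9 of the 53278 genes in the SVZ count table and 9 of the 50508 in the striatum table, and all 9 passed the filter on low counts in both tissues. In the SVZ, a thin layer against the striatum, they mark striatal tissue that came with the dissection.

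NestinTK+ mice carry a thymidine kinase (TK) transgene driven by the enhancer in the second intron of Nestin, so dividing precursors are lost when the animal is given ganciclovir (GCV). RNA was sequenced from dissected tissue of adult C57Bl/6 mice that received GCV or phosphate-buffered saline (PBS) by a pump under the skin. There were 5 NestinTK+GCV+ mice, called ablated below, 3 NestinTK-GCV+ mice, 3 NestinTK-PBS+ mice and 4 NestinTK+PBS+ mice, and the last 3 groups were pooled as 10 controls. NestinTK- mice were wild-type littermates, and each of the 15 mice gave 1 SVZ and 1 striatum library. The labels call the SVZ samples neural precursor cells, while the methods of the study describe dissected tissue. Mice of both sexes were used and the labels do not give the sex of a sample. Within each tissue the labels number every GCV library before every PBS library, so GCV and that order cannot be told apart. Animal numbers in the labels fall in 2 series. Every ablated mouse belongs to the later series and every NestinTK-PBS+ mouse to the earlier one, while the other groups hold mice of both. Comparisons with the NestinTK-PBS+ group, and the interaction of genotype and treatment, therefore also differ in number series. Mice are numbered here within their group, in the order of the deposit, and the number ties nothing across groups.

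Medium spiny neurons are the inhibitory output neurons of the striatum and make up most of its neurons. Some of their dopamine and adenosine receptors act through the G protein Gαolf (Gnal) and adenylyl cyclase 5 (Adcy5) to make cyclic AMP. Phosphodiesterases remove it, and the phosphatase inhibitor DARPP-32 (Ppp1r1b) carries the signal onward. Bcl11b, also called CTIP2, and Foxp1 are transcription factors these cells keep into adulthood, and both also occur in cortical neurons.

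On GRCm38, in the Gencode annotation used here, Adcy5 spans chromosome 16 from 35154877 to 35305738 on the plus strand and Pde10a chromosome 17 from 8525372 to 8986648 on the plus strand. Pde1b lies on chromosome 15 from 103503034 to 103530052 and Rasd2 on chromosome 8 from 75213944 to 75224113, both on the plus strand. Ppp1r1b and Rgs9 share chromosome 11, at 98348404 to 98357796 on the plus strand and 109225355 to 109298129 on the minus strand. Bcl11b spans chromosome 12 from 107910403 to 108003602 and Foxp1 chromosome 6 from 98925338 to 99522721, both on the minus strand. Reads were counted over the exons of each gene as a whole.

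The start sites of 2 members are printed, one with GC boxes and one with none. In the striatum Adcy5 averaged higher and Rasd2 lower in ablated than in NestinTK-GCV+ mice, as described further on. Both stretches are the 250 bases before the RefSeq start on GRCm38.p6, written 5′ to 3′ on the gene's own strand, with capitals marking each GC box (GGGCGG, read on both strands). The Adcy5 stretch lies at chr16:35154614-35154863 on the plus strand and the Rasd2 stretch at chr8:75213694-75213943 on the plus strand, and neither overlaps an annotated exon.
Adcy5: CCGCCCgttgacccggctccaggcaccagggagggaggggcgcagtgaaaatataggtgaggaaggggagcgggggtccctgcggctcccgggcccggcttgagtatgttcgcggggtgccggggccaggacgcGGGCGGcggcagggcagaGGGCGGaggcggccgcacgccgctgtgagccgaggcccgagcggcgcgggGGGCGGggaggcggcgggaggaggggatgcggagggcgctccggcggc
Rasd2: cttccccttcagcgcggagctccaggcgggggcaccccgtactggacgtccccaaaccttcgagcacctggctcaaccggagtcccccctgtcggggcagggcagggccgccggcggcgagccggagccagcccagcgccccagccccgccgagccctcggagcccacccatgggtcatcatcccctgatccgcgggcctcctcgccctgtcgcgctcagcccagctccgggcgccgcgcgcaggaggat
The Adcy5 stretch holds 4 GC boxes and is 78% G and C, and the Rasd2 stretch holds none and is 75.2% G and C. In windows that also take in 50 bases after the start, Adcy5 had 44 CpG dinucleotides and Rasd2 33, against a median of 7 in the 32851 windows of the RefSeq table. The table held 12 windows for 7 of the 9 members and none for Ppp1r1b and Gnal. A GC box was present in 7 of the 12, in windows of Adcy5, Foxp1, Pde10a, Pde1b and Rgs9, and in 35.7% of all windows. The core of the cyclic AMP response element (TGACG, both strands) was present in 1 of the 12, for Foxp1, and in 20.8% of all windows, and the full element (TGACGTCA) was in none of the 12 and in 1.79% of all. These are matches of letters only.

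The SVZ libraries held 8360810 to 9595103 counted reads in ablated mice and 8947137 to 21056005 in controls. The striatum libraries held 2626962 to 3371033 in ablated mice and 2780471 to 4693441 in controls. Every ablated striatum library was below the 3755752 to 4391021 reads of the NestinTK-GCV+ libraries. The part of this in the differences between those groups was not tested. The 2 tissues were prepared with different kits and are kept apart. In the SVZ, the ablated libraries were among the least deeply sequenced, and reads on mitochondrial genes took 13.1% to 17.0% of counts in ablated mice and 6.69% to 15.2% in controls. Levels are CPM, counts scaled to a common library size, with library sizes adjusted by the trimmed mean of M-values.

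A few libraries stood apart in the genes of other cell types. In the SVZ of ablated mouse 2 and NestinTK-GCV+ mouse 3, the 7 tested markers of cortical excitatory neurons summed to 619 and 708 CPM, against 109 CPM in NestinTK-GCV+ mouse 1 and 1.96 to 18.6 CPM in the other 12 libraries. Their mean lay 6.33 and 6.71 log2 units above the control median. In the striatum of NestinTK+PBS+ mouse 4, choroid plexus markers summed to 2055 CPM, against 138 to 303 CPM in the other 14 libraries, and septal neuron markers lay 1.71 log2 units above the control median. Comparisons of the 9 genes, and the counts over other spiny neuron genes, are given with and without these libraries, a choice made after seeing the data, and their part in the results was not tested beyond that. The SVZ library of NestinTK+PBS+ mouse 4, high in septal neuron markers as given below, was kept in. Ttr, the main transcript of choroid plexus, took 9.88%, 4.49% and 9.83% of SVZ reads in NestinTK-PBS+ mouse 2, NestinTK-PBS+ mouse 1 and NestinTK+PBS+ mouse 1, and at most 0.0789% in the other 12 SVZ libraries, all 5 ablated ones among them.

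In the SVZ the spiny neuron genes were abundant, and in the 10 controls their order per length was led by Ppp1r1b. The RPKM, the CPM divided by the gene's summed exon length, was 728 ± 141 (SD, n = 10) for Ppp1r1b, which lay above every other member by more than the spread. Rasd2 at 244 ± 63.3 and Pde1b at 214 ± 42.5 followed and did not differ beyond their spread. Adcy5 stood at 123 ± 25.6 RPKM. Below it came Pde10a at 90.6 ± 24.8, Bcl11b at 87.1 ± 14.4, Gnal at 79.4 ± 17.0 and Rgs9 at 72.4 ± 19.3 RPKM, a run of neighbours whose spreads overlap. Foxp1 was lowest at 45.4 ± 10.0 RPKM. The striatum libraries read only the 3′ ends of transcripts, so their levels were not ordered between genes. In these bulk samples fewer cells of a type and less RNA per cell cannot be told apart.

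**Figure D1:**
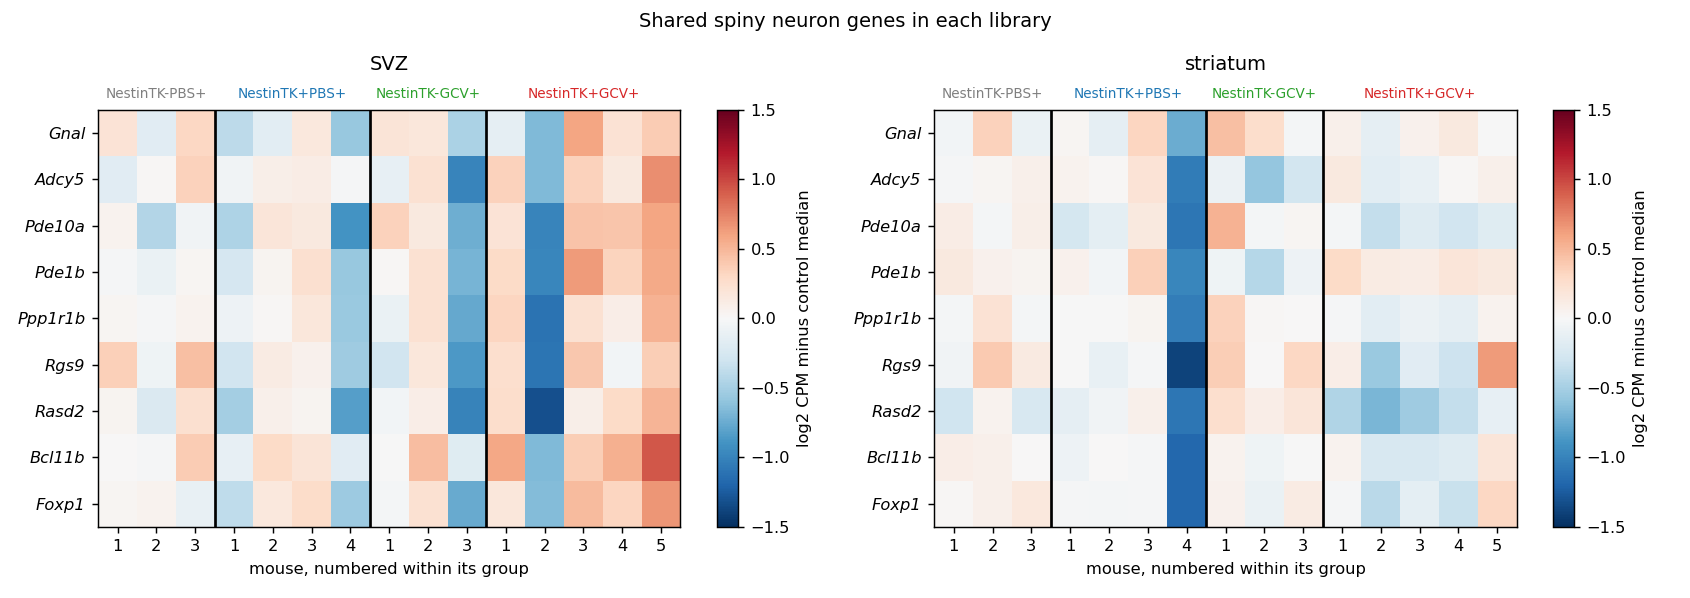
Level of each of the 9 genes in each library of both tissues, as log2 CPM minus that gene's median over the 10 control libraries, with mice in columns ordered by group and genes in rows. SVZ libraries of ablated mouse 2 and NestinTK-GCV+ mouse 3 and the striatum library of NestinTK+PBS+ mouse 4 are low across the rows, and the other 4 ablated SVZ libraries are above the control median in most rows.

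The SVZ of ablated mice was compared with that of controls to ask whether loss of precursors was accompanied by a different level of these genes in the dissected tissue. All 9 stood higher on average in the ablated SVZ, by 0.11 to 0.35 on the log2 scale, and none passed a test. Taken as the geometric mean of the 9 genes, 4 of the 5 ablated libraries, at 1105 to 1387 CPM, were above the highest control library at 1077 CPM, while ablated mouse 2, at 495 CPM, was the lowest of all 15. As a plain share of all counts, ablated mice 3 and 5, at 1.17% and 1.32%, were above every control. By that share ablated mice 1 and 4, at 1.04% and 1.07%, were below NestinTK+PBS+ mouse 3 at 1.08%. Control libraries ran from 563 CPM in NestinTK-GCV+ mouse 3 to 1077 CPM in NestinTK-GCV+ mouse 2.

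The genes that make the cyclic AMP signal came first in this order of roles. Gnal, the stimulatory G protein subunit coupled to some dopamine and adenosine receptors, measured 830, 578, 1377, 1062 and 1191 CPM in ablated mice 1, 2, 3, 4 and 5. Its 10 controls ran from 615 through a median of 920 to 1129 CPM, so the ablated mice lay on both sides of the control range and within it. Mean levels were 1008 ± 312 CPM (SD, n = 5) and 887 ± 190 CPM (SD, n = 10). Adcy5, the main striatal adenylyl cyclase, measured 1134, 567, 1140, 992 and 1451 CPM in the same ablated mice, with controls at 452, 896 and 1139 CPM (lowest, median and highest). Ablated mouse 5 was well above every control for Adcy5 and mice 1 and 3 lay at the top of the control range, and means were 1057 ± 321 and 883 ± 184 CPM.

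The enzymes that break cyclic nucleotides down had 1 low and 4 high ablated libraries. Pde10a, a phosphodiesterase concentrated in spiny neurons, measured 1457, 634, 1692, 1688 and 1909 CPM in ablated mice 1, 2, 3, 4 and 5 and ran from 680 through 1263 to 1610 CPM in controls. Pde1b, a calcium-stimulated phosphodiesterase, measured 1488, 620, 1894, 1538 and 1810 CPM in these mice and ran from 751 through 1220 to 1436 CPM in controls. For Pde1b 4 ablated libraries were above every control and the fifth was below every control. Means were 1476 ± 497 and 1164 ± 319 CPM for Pde10a and 1470 ± 506 and 1155 ± 229 CPM for Pde1b.

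Among the downstream and modulating members mouse 2 was again the lowest ablated library. Ppp1r1b, whose product inhibits protein phosphatase 1 once protein kinase A has phosphorylated it, measured 2803, 1041, 2633, 2401 and 3219 CPM in ablated mice 1, 2, 3, 4 and 5. Its controls ran from 1318 through 2244 to 2622 CPM. Rgs9, which shortens signalling through inhibitory G proteins, measured 567, 222, 629, 463 and 614 CPM in the ablated mice, and its controls ran from 262 through 475 to 650 CPM. No ablated library was above the highest control for Rgs9. Rasd2, which encodes the small GTPase Rhes, measured 1037, 346, 921, 1054 and 1225 CPM in ablated mice and 430, 863 and 1024 CPM (lowest, median and highest) in controls. Ablated means were 2419 ± 826 CPM for Ppp1r1b, 499 ± 168 for Rgs9 and 916 ± 337 for Rasd2, and control means were 2132 ± 412, 463 ± 123 and 774 ± 201 CPM.

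Both transcription factors followed. Bcl11b measured 989, 415, 854, 952 and 1257 CPM in ablated mice 1, 2, 3, 4 and 5 and ran from 582 through 659 to 907 CPM in controls. Foxp1 measured 736, 419, 911, 822 and 1042 CPM in ablated mice and ran from 388 through 657 to 798 CPM in controls. For each, 3 ablated libraries were above the highest control and mouse 2 was far below the control median. Means were 893 ± 306 and 706 ± 117 CPM for Bcl11b and 786 ± 234 and 625 ± 137 CPM for Foxp1. Foxp1 shares exon bases with Gm20696 and Gm49348, so its reads may be split with them. Gnal and Ppp1r1b overlap the antisense genes Mppe1 and 1700003D09Rik, and whether reads were counted by strand is not given in the sources used here.

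**Figure D2:**
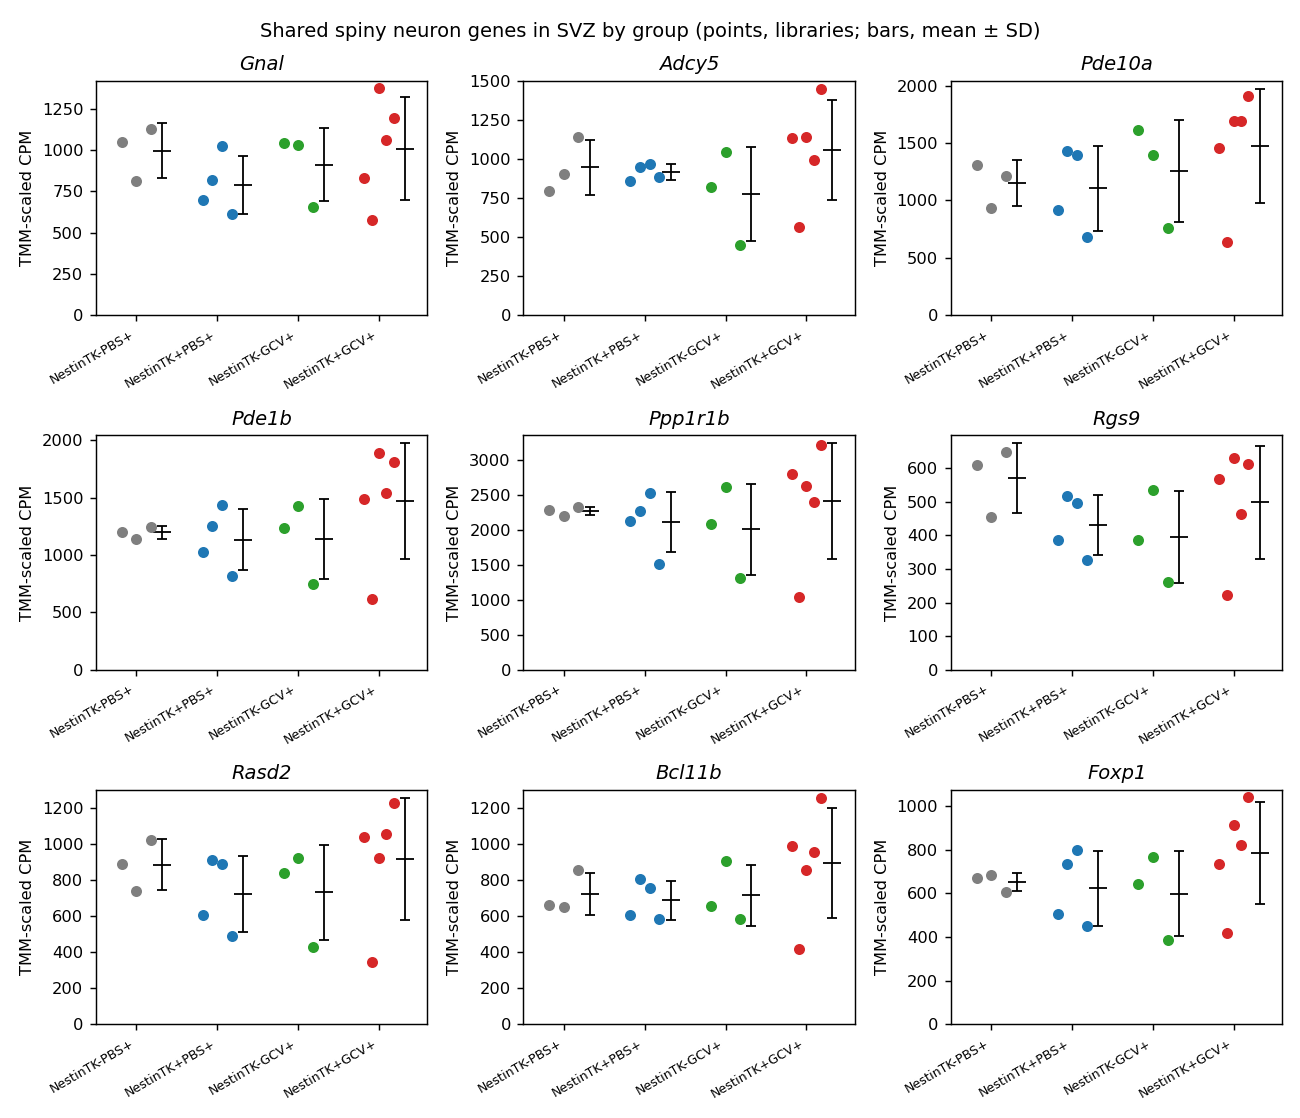
SVZ level of each gene in CPM, 1 point per library in the 4 groups of genotype and treatment, with a horizontal mark at the group mean and error bars of 1 SD. The lowest ablated point in every panel is mouse 2, and in 8 of the 9 panels, Rgs9 being the exception, at least 1 other ablated point lies above every control.

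None of the 9 met the study's rule of an unadjusted p of at most 0.01 and a change of at least 2-fold, which 1.59% of the 16375 SVZ genes tested met, and none had an adjusted p under 0.05, against 0.00611% of all genes, in the quasi-likelihood fit of edgeR, adjusted by Benjamini-Hochberg. No member had an unadjusted p under 0.05 either, against 9.81% of genes, and for no member did the ablated and control libraries fail to overlap, against 0.256%. All 9 log2 differences were above 0, as were 48.1% of all genes, and since the members rise and fall together across libraries the 9 are not separate observations. The largest was Pde1b at 0.35 (SE 0.202, 95% interval -0.07 to 0.77, edgeR adjusted p = 0.612). Bcl11b at 0.34 (SE 0.184, edgeR adjusted p = 0.575) and Pde10a at 0.34 (SE 0.226, edgeR adjusted p = 0.666) were next, then Foxp1 at 0.33, Adcy5 at 0.26 and Rasd2 at 0.24. Gnal and Ppp1r1b both stood at 0.18, and Rgs9 was smallest at 0.11 with a 95% interval of -0.36 to 0.58. The member median was 0.26 and the median of all genes tested was -0.027.

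Without ablated mouse 2 and NestinTK-GCV+ mouse 3 the SVZ differences grew and their errors shrank, and 7 of the 9 had an unadjusted p under 0.05, against 10.1% of the 15993 genes then tested. Pde1b then had a log2 difference of 0.49 (edgeR unadjusted p = 0.00189), Bcl11b 0.49 (unadjusted p = 0.00226), Pde10a 0.48 (unadjusted p = 0.0155) and Foxp1 0.43 (unadjusted p = 0.00953). Values were 0.39 for Rasd2, 0.34 for Adcy5, 0.32 for Ppp1r1b, 0.29 for Gnal (edgeR unadjusted p = 0.0944) and 0.23 for Rgs9 (unadjusted p = 0.181). In linear terms the 9 changes were 1.17-fold to 1.41-fold. None reached 2-fold, so none met the study's rule, which 1.5% of genes met. The edgeR adjusted p of the 9 was 0.377 to 0.690, and the direction was again above 0 in all 9, against 47.2% of genes. The libraries left out were the lowest in the SVZ by the members' mean. Smaller errors and p-values for these genes therefore follow in part from leaving them out, here and in the group contrasts below. Since the 9 move together, the number under 0.05 does not count separate observations.

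With the 3 control mice high in Ttr left out instead, all 9 SVZ differences were above 0, from 0.13 to 0.33, with a median of 0.24 and edgeR unadjusted p-values from 0.157 to 0.601. The median of the 8 choroid plexus genes between ablated mice and controls was -5.65 with all libraries and -0.51, over the 7 then tested, without those mice.

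**Figure D3:**
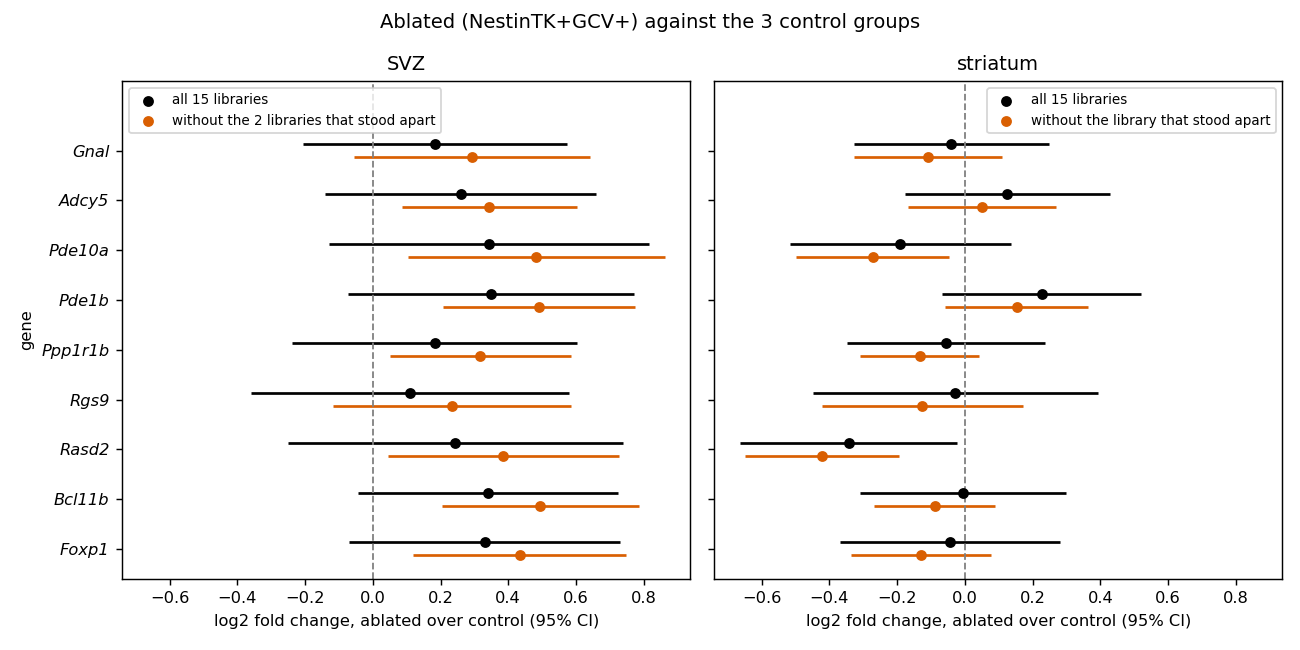
Difference between ablated and control mice for each gene, as log2 fold change with its 95% interval, in the SVZ and in the striatum, for all 15 libraries and without the libraries that stood apart. SVZ values lie above 0 in both fits, and striatum values lie on both sides of 0 with Rasd2 lowest and Pde1b highest.

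Taken by group, the ablated SVZ averaged above the group with the transgene alone and the group with GCV alone. No contrast was fitted with NestinTK-PBS+ mice, which have neither. Rgs9 averaged lower in ablated mice than in those, at 499 ± 168 against 571 ± 103 CPM. The other members averaged higher, Gnal only narrowly at 1008 ± 312 against 997 ± 166 CPM. NestinTK+GCV+ against NestinTK+PBS+ gave 9 of 9 members above 0, from 0.19 for Ppp1r1b to 0.42 for Pde10a, against 50.2% of genes, and none met the rule, against 1.19%. NestinTK+GCV+ against NestinTK-GCV+ gave 9 of 9 above 0, from 0.15 for Gnal to 0.45 for Adcy5, against 52% of genes, and none met the rule, against 0.94%. Neither had a member with an unadjusted p under 0.05, against 7.13% and 7.45% of genes, or with groups that did not overlap, against 2.57% and 3.4%. These comparisons share the ablated mice. GCV against PBS in NestinTK- mice gave 1 of 9 above 0, Pde10a at 0.12, and 47.9% of all genes, and NestinTK+ against NestinTK- under PBS gave 0 of 9 and 49.5% of all genes. None of the 9 met the rule in either, against 1.06% and 0.195% of genes, or had an unadjusted p under 0.05, against 7.65% and 2.69%, or groups that did not overlap, against 11.3% and 4.88%.

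The interaction of genotype and treatment in the SVZ was above 0 for 9 of 9 members, from 0.29 for Pde10a to 0.74 for Rgs9, and none met the rule, against 0.837% of genes, or had an unadjusted p under 0.05, against 5.09%. Rgs9 had an SE of 0.424 and an unadjusted p of 0.0970 in the edgeR fit across all genes, the smallest of the 9. Without ablated mouse 2 and NestinTK-GCV+ mouse 3 it was 0.70 with an unadjusted p of 0.0396 and an edgeR adjusted p of 0.914, 1 of 9 members under 0.05 against 5.33% of genes, and none met the rule, against 0.857%. With those libraries left out, NestinTK+GCV+ against NestinTK+PBS+ gave 8 of 9 members an unadjusted p under 0.05, against 7.58% of genes, with changes of 1.29-fold to 1.52-fold. The ninth was Rgs9 at an edgeR unadjusted p of 0.0521, and the edgeR adjusted p-values were 0.594 to 0.657. None met the rule, against 1.14% of genes. The SVZ library of NestinTK+PBS+ mouse 4, the lowest of its group at 645 CPM, stayed in this comparison, and its part was not tested. NestinTK+GCV+ against NestinTK-GCV+ then had 0 of 9 under 0.05, against 6.42%, and 9 of 9 above 0, against 52.8%, with 2 libraries left in the NestinTK-GCV+ group, and none met the rule, against 1.05%. GCV against PBS in NestinTK- mice turned to 7 of 9 above 0, against 46.7% of genes, with 0 of 9 under 0.05, against 6.45%. NestinTK+ against NestinTK- under PBS kept 0 of 9 above 0, against 49.8% of genes, and 0 of 9 under 0.05, against 2.9%.

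How the 9 genes moved between SVZ libraries was nearly 1 pattern. Over 36 pairs of members and 15 libraries, Pearson's r of log2 CPM ran from 0.69 for Adcy5 with Gnal to 0.96 for Pde1b with Foxp1, with a median of 0.88. Among the 10 controls alone the median was 0.79. Ablated mouse 2 was the lowest of 15 in 7 of the 9 genes and NestinTK-GCV+ mouse 3 in the other 2, at 0.52 and 0.60 of the median control geometric mean. Pan-neuronal genes did not share this, as their mean was 0.62 and 0.95 log2 units above the control median in the same libraries. The members' mean minus the pan-neuronal mean was 0.03 in ablated mouse 2, -0.11 in NestinTK-GCV+ mouse 3 and 0.79 in NestinTK+PBS+ mouse 4, and 1.46 to 1.88 in the other 12. Among those 12 the ablated libraries stood at 1.82 to 1.88, and the highest control, NestinTK-PBS+ mouse 3, at 1.86. NestinTK+PBS+ mouse 4, the next lowest in the members at 645 CPM, had septal neuron markers 4.12 log2 units above the control median, summing to 446 CPM.

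Against the cortical excitatory markers, the members' mean gave r = -0.75 (Spearman's rho -0.71) over 15 SVZ libraries. It was r = -0.28 without ablated mouse 2 and NestinTK-GCV+ mouse 3, so the relation rests on that pair. Against the share of reads on mitochondrial genes r was 0.48 and rho 0.64, and r was 0.20 without NestinTK-GCV+ mouse 3 and ablated mouse 3 and 0.87 in the 10 controls alone. The ablated libraries also had the higher mitochondrial shares, as given above, and the part of this in the SVZ differences was not tested. Across the 15 mice the members' mean in the SVZ and in the striatum of the same animal had r = 0.42 and rho = 0.07. Without NestinTK+PBS+ mouse 4 and ablated mouse 2, r was -0.14. Without ablated mouse 2 and NestinTK-GCV+ mouse 3 it was 0.57, so r changed sign with the libraries left out.

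**Figure D4:**
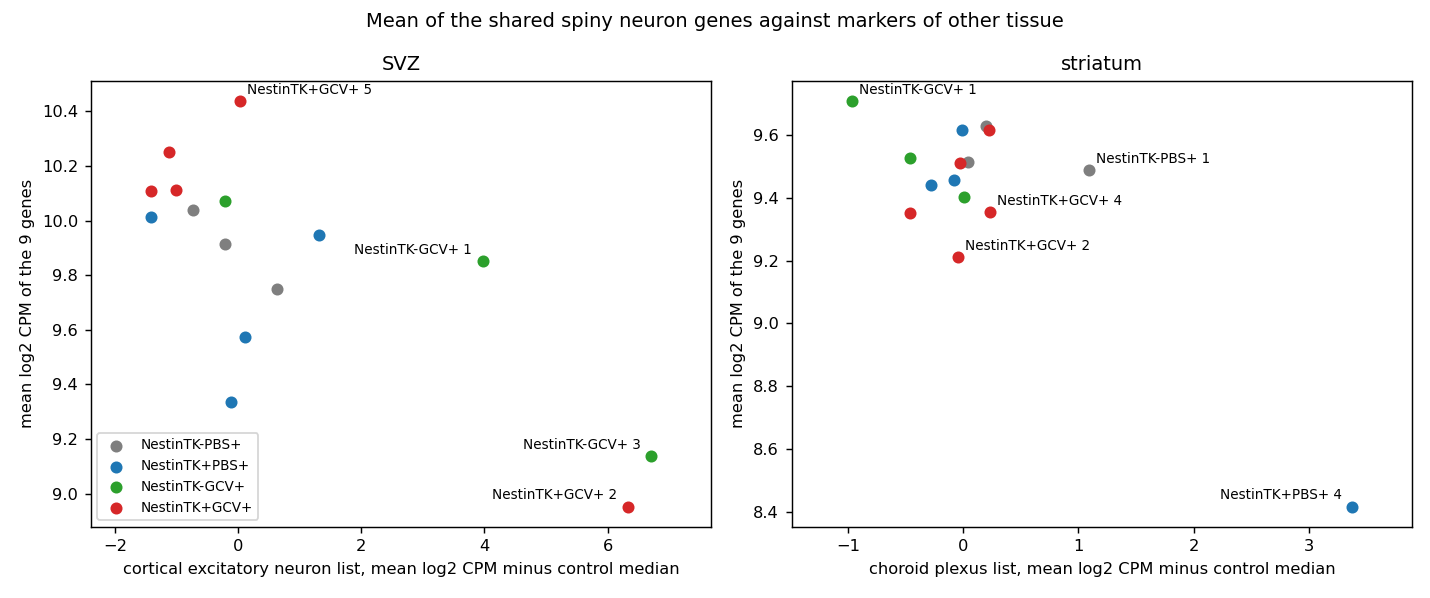
Mean log2 CPM of the 9 genes in each library against cortical excitatory markers in the SVZ and choroid plexus markers in the striatum, each as mean log2 CPM minus the control median, with points coloured by group. SVZ libraries of ablated mouse 2 and NestinTK-GCV+ mouse 3 are high in cortical excitatory markers and low in the 9 genes, and the striatum library of NestinTK+PBS+ mouse 4 is high in choroid plexus markers and lowest in the 9 genes.

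The genes whose SVZ levels were most like the members' mean, out of 11435 genes with a mean of at least 5 CPM, included Scn4b at r = 0.97 over 15 libraries, Drd2 at 0.94 and Akap9, Foxo1, St8sia3, Penk and Cpne5 at 0.92. Drd2 encodes the D2 dopamine receptor and Penk the enkephalin precursor of the indirect pathway. Without ablated mouse 2, r was 0.96 for both Scn4b and Drd2. In the same libraries, with NestinTK-GCV+ mouse 3 still among them, it was 0.91 for Akap9 and 0.90 for Foxo1. St8sia3 then had 0.88, and Penk and Cpne5 had 0.87.

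In the striatum itself the 9 genes took 0.436% to 0.985% of all reads, and none of them passed the test between ablated mice and pooled controls. NestinTK+PBS+ mouse 4 was the lowest of 15 in all 9 genes, at a geometric mean of 342 CPM or 0.47 of the control median, and the other 14 libraries ran from 592 to 836 CPM. Its members' mean lay 0.45 log2 units below its pan-neuronal mean, while in the other libraries it lay 0.83 to 1.41 units above. Pan-neuronal genes in that library were 0.48 log2 units above the control median and genes of the direct and indirect pathways were 1.10 below.

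With all libraries, most members had nearly equal means in both groups. Ppp1r1b measured 2520, 2284, 2407, 2337 and 2655 CPM in ablated mice 1, 2, 3, 4 and 5, with means of 2441 ± 149 (SD, n = 5) and 2535 ± 510 CPM (SD, n = 10). Bcl11b had means of 1547 ± 214 and 1554 ± 298 CPM and Foxp1 1625 ± 335 and 1676 ± 333 CPM. Gnal had 474 ± 33.8 and 487 ± 105 CPM and Rgs9 393 ± 135 and 400 ± 104 CPM. Within the ablated group Rgs9 spread most, at 420, 267, 348, 315 and 612 CPM, and mouse 5 held the highest value of all 15 libraries. The log2 differences of these 5 genes were -0.05 for Ppp1r1b, -0.006 for Bcl11b, -0.04 for Foxp1, -0.04 for Gnal and -0.03 for Rgs9. Without NestinTK+PBS+ mouse 4, the lowest control, they were -0.13, -0.09, -0.13, -0.11 and -0.13 in the same order. Their edgeR unadjusted p-values were then 0.130 to 0.391.

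Pde1b and Adcy5 were the members that averaged higher in the ablated striatum. Pde1b measured 444, 396, 393, 413 and 403 CPM in the 5 ablated mice, 347, 269 and 344 CPM in NestinTK-GCV+ mice 1, 2 and 3, 403, 380 and 375 CPM in NestinTK-PBS+ mice 1, 2 and 3, and 380, 351, 466 and 184 CPM in NestinTK+PBS+ mice 1, 2, 3 and 4. Its ablated values were close together and lay above all 3 NestinTK-GCV+ values, and overlapped both other groups. The pooled log2 difference was 0.23 (SE 0.142, edgeR adjusted p = 0.615). Adcy5 averaged 962 ± 82.9 CPM in ablated mice and 882 ± 195 CPM in controls, a log2 difference of 0.13 (SE 0.147, edgeR unadjusted p = 0.402). Without NestinTK+PBS+ mouse 4 the differences were 0.15 for Pde1b and 0.05 for Adcy5.

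Pde10a averaged 335 ± 29.1 CPM in ablated mice and 382 ± 93.8 CPM in controls, at -0.19 on the log2 scale (SE 0.158, edgeR adjusted p = 0.719). Its 5 ablated values, 378, 301, 339, 317 and 340 CPM, lay below the 555, 380 and 394 CPM of NestinTK-GCV+ mice 1, 2 and 3. The highest ablated and the lowest NestinTK-GCV+ value were less than 2 CPM apart.

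Rasd2 had the largest striatal difference of the 9. It measured 216, 184, 205, 230 and 273 CPM in ablated mice 1, 2, 3, 4 and 5. NestinTK-GCV+ mice 1, 2 and 3 measured 354, 317 and 336 CPM, all above every ablated mouse. NestinTK-PBS+ mice 1, 2 and 3 measured 241, 307 and 251 CPM, and NestinTK+PBS+ mice 1, 2, 3 and 4 measured 269, 286, 312 and 139 CPM, so that both groups overlapped the ablated one. Means were 222 ± 33.0 CPM in ablated mice (n = 5), 336 ± 18.5 in NestinTK-GCV+ (n = 3), 266 ± 35.4 in NestinTK-PBS+ (n = 3) and 252 ± 76.9 in NestinTK+PBS+ (n = 4).

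**Figure D5:**
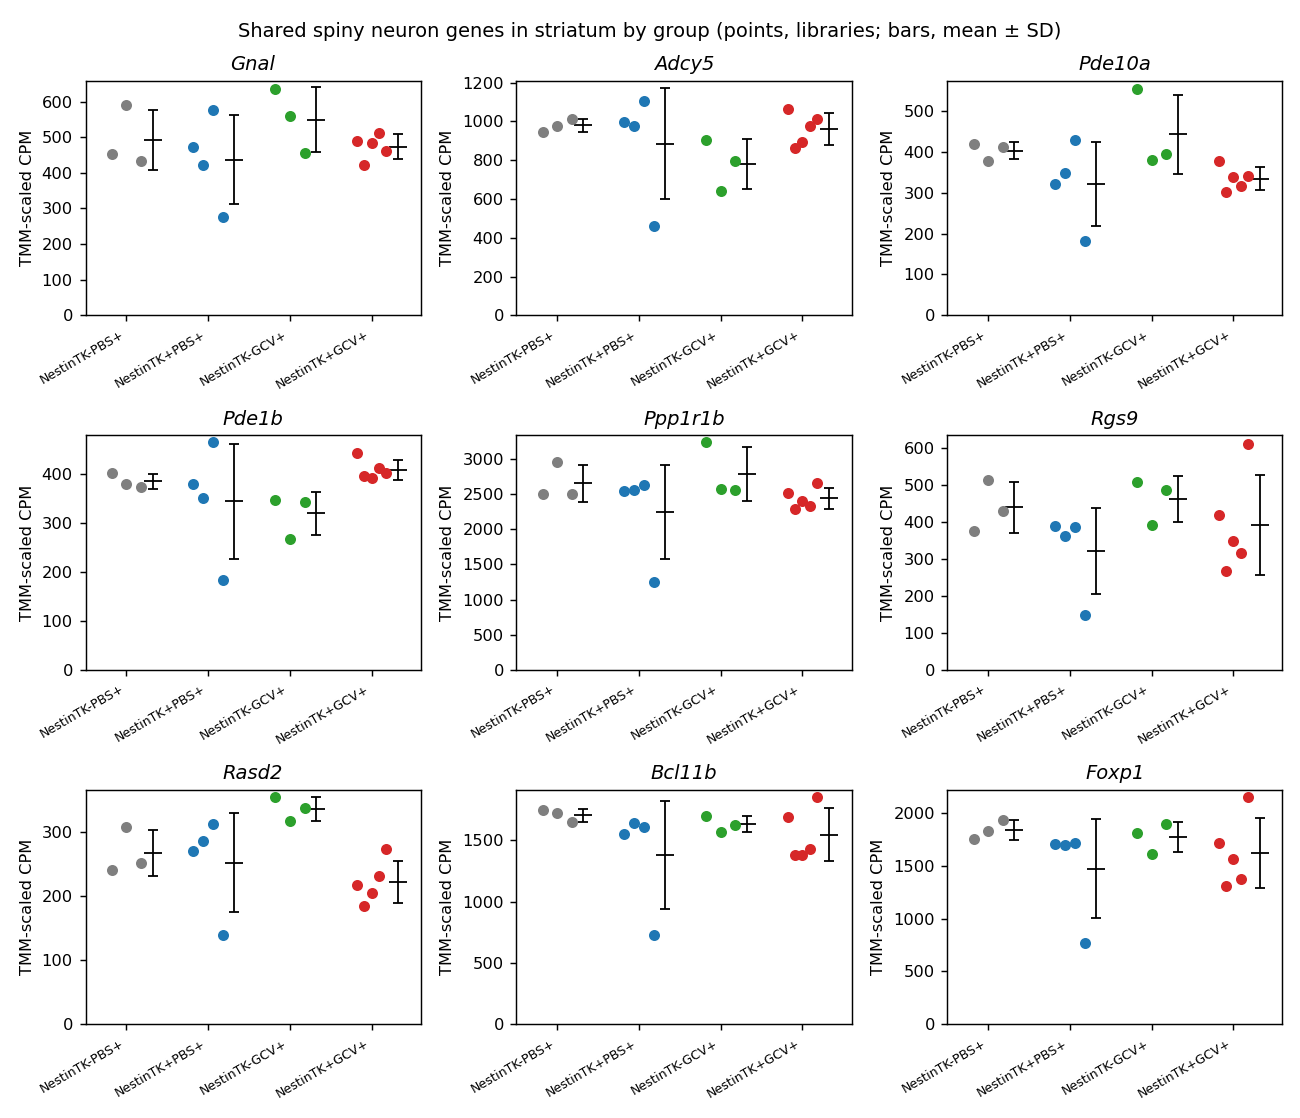
Striatum level of each gene in CPM, 1 point per library in the 4 groups of genotype and treatment, with a horizontal mark at the group mean and error bars of 1 SD. NestinTK+PBS+ mouse 4 is the lowest point in all 9 panels, and for Rasd2 all 5 ablated points lie below the 3 NestinTK-GCV+ points.

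Against the pooled controls, Rasd2 stood at -0.34 on the log2 scale (SE 0.155, 95% interval -0.66 to -0.02), with an unadjusted p of 0.0372 and an adjusted p of 0.438 by edgeR's quasi-likelihood test, and did not pass after adjustment. It was the 1 member of 9 under an unadjusted p of 0.05, against 10.5% of the 15419 striatum genes tested. No member met the rule of p at most 0.01 and 2-fold, against 0.694% of genes, or an adjusted p under 0.05, against 0.182%. The groups overlapped for every member, against 0.532% of genes with no overlap. Of the 9 differences 2 were above 0, against 50.5% of genes, and the member median was -0.04 beside 0.0037 for all genes.

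Without NestinTK+PBS+ mouse 4 the Rasd2 difference was -0.42 (SE 0.111, 95% interval -0.65 to -0.19, edgeR unadjusted p = 8.1e-04, adjusted p = 0.0987) and Pde10a stood at -0.27 (unadjusted p = 0.0199, adjusted p = 0.333). These were 2 of 9 members under 0.05, against 11.5% of 15269 genes. Again none met the rule, against 0.622%, or passed after adjustment, against 0.308%. The library left out was the lowest for all 9 genes, so smaller errors follow in part from leaving it out.

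Of the contrasts between the 4 groups, that of the genotypes under GCV gave Rasd2 its largest difference. NestinTK+GCV+ against NestinTK-GCV+ gave -0.60 (SE 0.182, 95% interval -0.97 to -0.22), with an unadjusted p of 0.0031 and an adjusted p of 0.0686 by edgeR. Pde10a was at -0.40 (edgeR adjusted p = 0.249), Pde1b at 0.36 (adjusted p = 0.329) and Adcy5 at 0.30 (unadjusted p = 0.122). Groups did not overlap for 3 of 9 members, with Pde10a and Rasd2 lower and Pde1b higher in ablated mice, against 13% of all genes. An unadjusted p under 0.05 was reached by 2 of 9 members, against 17.7% of genes, and neither an adjusted p under 0.05, against 3.13%, nor the rule, against 2.1%, was met by any.

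Leaving out 1 library decided the call on Rasd2 here. Without NestinTK+PBS+ mouse 4, which is in neither group but enters the shared estimate of spread, Rasd2 was lower in ablated mice at -0.60 (0.661-fold) with an edgeR adjusted p of 0.00456, 1 of 9 members against 6.48% of genes. Without ablated mouse 5 it was -0.68 with an adjusted p of 0.0359. Over all such fits the difference ran from -0.68 to -0.54 and the edgeR adjusted p from 0.00456 to 0.186, the last without NestinTK-GCV+ mouse 1. With NestinTK+PBS+ mouse 4 left out, Pde10a was at -0.40 (adjusted p = 0.0585) and Pde1b at 0.36 (adjusted p = 0.0739), and 4 of 9 members, these with Rasd2 and Adcy5, had an unadjusted p under 0.05, against 20.3% of genes.

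In NestinTK+ mice GCV against PBS gave Rasd2 a difference of -0.18 (edgeR unadjusted p = 0.295), and the other 8 members were above 0, against 51.3% of genes. None of the 9 met the rule there, against 1.35%. Without NestinTK+PBS+ mouse 4, the lowest library of that comparison, 2 of 9 were above 0, against 52.2% of genes, and Rasd2 stood at -0.38 (edgeR unadjusted p = 0.00523, adjusted p = 0.395). The direction of most members in that comparison turned on 1 library.

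The 2 groups without the transgene were compared in the same way. Rasd2 stood at 0.33 in NestinTK-GCV+ over NestinTK-PBS+ mice (edgeR unadjusted p = 0.119) and Pde1b and Adcy5 at -0.27 and -0.33, with no overlap for these 3 of 9 members, against 20% of genes. None met the rule, against 2.46%. Without NestinTK+PBS+ mouse 4 the unadjusted p by edgeR was 0.0259 for Rasd2 and 0.0175 for Adcy5, 2 of 9 members under 0.05 against 19% of genes, with an adjusted p of 0.187 for Rasd2. Since the NestinTK-GCV+ mice enter both comparisons, the values are not independent of each other. NestinTK+ against NestinTK- under PBS gave 0 of 9 above 0, against 49.6% of genes, with no overlap for Bcl11b at -0.30 and Foxp1 at -0.32, 2 of 9 against 5.7% of genes, and none met the rule, against 0.83%. Without mouse 4 of the NestinTK+PBS+ group 3 of 9 were above 0, against 49% of genes.

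The interaction of genotype and treatment in the striatum was -0.51 for Rasd2 (SE 0.267, edgeR unadjusted p = 0.0654, adjusted p = 0.375) and 0.52 for Pde1b (SE 0.267, unadjusted p = 0.0648, adjusted p = 0.373). No member met the rule, against 3.28% of genes. Without NestinTK+PBS+ mouse 4 the interaction for Rasd2 was -0.72 (SE 0.190, edgeR unadjusted p = 7.7e-04, adjusted p = 0.0353), 1 of 9 members with an adjusted p under 0.05, against 3.12% of genes.

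Rasd2 was also set against the other members of the same library. The mean of the other 8 includes Pde1b and Adcy5, which lay on the other side of 0 in the contrast of the genotypes under GCV. The log2 CPM of Rasd2 minus the mean of the other 8 members averaged -1.83 in ablated mice (range -1.97 to -1.69), -1.30 in NestinTK-GCV+ (-1.39 to -1.23), -1.68 in NestinTK-PBS+ (-1.77 to -1.54) and -1.48 in NestinTK+PBS+ (-1.55 to -1.44). NestinTK+PBS+ mouse 4 is included in the last range, so it was not low by this measure. The ablated range lay below both the NestinTK-GCV+ and the NestinTK+PBS+ range and overlapped the NestinTK-PBS+ range. Pde1b by the same measure averaged -0.82 in ablated mice, -1.39 in NestinTK-GCV+, -1.07 in NestinTK-PBS+ and -0.99 in NestinTK+PBS+. Adcy5 averaged 0.56, 0.06, 0.44 and 0.54 in the same order.

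How alike the members were in the striatum changed with the libraries used. Over 36 pairs and 15 libraries r ran from 0.35 for Pde1b with Rasd2 to 0.96 for Rgs9 with Foxp1, with a median of 0.78. When NestinTK+PBS+ mouse 4 was left out it ran from -0.46 to 0.92 with a median of 0.48. In those 14 libraries Pde1b and Adcy5 had little relation to the mean of the other 8 members, at r = -0.08 and 0.18, and Gnal had 0.42, Rasd2 0.59 and Pde10a 0.64. Rgs9, Foxp1, Bcl11b and Ppp1r1b had 0.74 to 0.82. In the SVZ the median over pairs without the lowest library was 0.82. Among the 10 controls alone the order of the tissues was the other way. The median was 0.86 with 24 of 36 pairs above 0.8 in the striatum, and 0.79 with 17 of 36 pairs in the SVZ. Those striatum controls include NestinTK+PBS+ mouse 4, the lowest library there, while the lowest SVZ library, ablated mouse 2, is not a control. The difference between tissues was not tested.

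The striatal genes most like the members' mean, out of 10563 with a mean of at least 5 CPM, were Tacc1 and Drd1 at r = 0.97 over 15 libraries, then Ptpn5 and Gsg1l at 0.96, Ano3 at 0.95, and St8sia3, Ppp1r9a and Olfr1393 at 0.94. Drd1 encodes the D1 dopamine receptor and Ptpn5 the striatum-enriched phosphatase STEP. Without NestinTK+PBS+ mouse 4, r was 0.85 for Tacc1, 0.81 for Drd1, 0.78 for Ptpn5 and 0.72 for St8sia3.

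Other genes of the same pathway and of spiny neuron identity did not pass the test between ablated mice and pooled controls either. Of 50 genes of cyclic nucleotide and dopamine signalling beyond the members, 39 were higher and 11 lower in the ablated SVZ, none met the rule or passed after adjustment, and their median was 0.14. Of all SVZ genes 48.1% were higher, 1.59% met the rule and 0.00611% passed after adjustment. The receptors Drd1, Drd2 and Adora2a stood at -0.04, 0.38 and 0.12, with edgeR adjusted p-values from 0.587 to 0.974. Of 15 further transcription factors of spiny neurons 13 were higher and none met the rule, with a median of 0.17. Foxp2, Ikzf1, Ikzf2 and Rarb stood at 0.02, 0.17, 1.43 and 0.33, the third with an SE of 0.968. Pan-neuronal genes had a median of 0.11, with 8 of 12 higher and none that met the rule. Without ablated mouse 2 and NestinTK-GCV+ mouse 3, the medians were 0.22 for the signalling genes, 0.34 for the transcription factors and 0.16 for the pan-neuronal genes, with 44 of 50, 15 of 15 and 10 of 12 higher, and again none met the rule or passed after adjustment. Of all genes then tested 47.2% were higher and 1.5% met the rule.

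In the striatum, 49 of the signalling genes were tested, 26 higher and 23 lower, with a median of 0.0087 and none that met the rule. Of all striatum genes 50.5% were higher and 0.694% met the rule. Drd1, Drd2 and Adora2a stood at -0.12, -0.24 and -0.39, of which Adora2a had an unadjusted p of 0.0413 and an edgeR adjusted p of 0.451. The transcription factors gave 8 higher and 7 lower, a median of 0.07 and none that met the rule, with Foxp2 at 0.17, Ikzf1 at -0.69 (edgeR unadjusted p = 0.0213, adjusted p = 0.378), Ikzf2 at -0.03 and Rarb at 0.07. The signalling genes without NestinTK+PBS+ mouse 4 gave 17 higher and 32 lower and the transcription factors 9 higher and 6 lower, and none met the rule or passed after adjustment. Of all genes in that fit 51.3% were higher, 0.622% met the rule and 0.308% passed after adjustment. Adora2a then stood at -0.49 (edgeR adjusted p = 0.0636).

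Between the genotypes under GCV, Rgs7bp, which anchors Rgs9-type regulators at the membrane, fell by 0.53 (SE 0.145, edgeR adjusted p = 0.0413) and the adenylyl cyclase Adcy9 fell by 0.80 (SE 0.184, edgeR adjusted p = 0.0196), 2 of the 49 signalling genes against 3.13% of all genes, and neither reached 2-fold. With NestinTK+PBS+ mouse 4 left out, 9 of the 49 had an adjusted p under 0.05, against 6.48% of all genes. Of these, 8 were lower, among them Adcy9 at -0.80 (edgeR adjusted p = 0.00223), Adora2a at -0.59 (adjusted p = 0.00784) and Drd2 at -0.51 (adjusted p = 0.0264), and Ppp1cb, a catalytic subunit of protein phosphatase 1, was higher at 0.49 (adjusted p = 0.0471). None of the 9 reached 2-fold. Without the mice high in Ttr in the SVZ, Rgs7bp had an edgeR adjusted p of 0.0518 and Adcy9 0.0263.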

How the data were processed

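RNA-seq of SVZ (SMART-Seq v4) and striatum (QuantSeq 3′ FWD) was used, 15 libraries each. According to the study's methods the authors trimmed reads with Trimmomatic, aligned them to mm10 with STAR 2.5.3a (the labels' processing notes) and counted them per Gencode gene with featureCounts, and deposited raw counts per gene and library. RPKM was computed here from the SVZ counts and the summed exonic bases of each gene, and used only to order levels between genes.

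Members and lists were chosen with earlier results of these data known. Genes with at least 1 CPM in at least 3 libraries were kept. Counts were normalised by the trimmed mean of M-values and tested in each tissue with edgeR 4.0.16 (quasi-likelihood, all genes, Benjamini-Hochberg) in R 4.3.3, although the study's methods name limma. The fits compared ablated mice with pooled controls, and the 4 groups with an interaction. The call was p at most 0.01 with 2-fold, and adjusted p under 0.05 beside it. Log2 CPM used a prior count of 2. Alternatives were limma-voom (limma 3.58.1), DESeq2 1.42.0, no filter, single control groups, subsets of mice and each library left out. Scripts were tested on simulated data. Promoter windows came from RefSeq (GRCm38.p6) and gene overlaps from the Gencode annotation. Named list genes were those called or, where none was, the first in written order, and 1 gene that this rule and the likeness ranking name is not reported here. Each library is 1 animal by its label, so p-values measure the spread between animals prepared in each tissue.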

Additional observations from a re-analysis of the deposited data

Results flagged for a closer look

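Single libraries far from the rest of their group, by the ratio of the gap to the group's range (Dixon's ratio against its 95% critical value), were found for 17 combinations of member and group. Chance alone sets apart about 1 in 20 groups, and the members move together, so these are mainly 3 libraries. In the ablated SVZ mouse 2 was low for Ppp1r1b (ratio 0.740), Pde10a (0.755), Pde1b (0.784) and Rasd2 (0.774). Among the 10 SVZ controls NestinTK-GCV+ mouse 3 was low for Adcy5 (0.610).

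In the striatum mouse 4 was low within the 4 NestinTK+PBS+ mice for Ppp1r1b (0.956), Rgs9 (0.924), Bcl11b (0.933), Foxp1 (0.986) and Adcy5 (0.856). It was low among the 10 pooled controls for Ppp1r1b (0.729), Pde10a (0.513), Rgs9 (0.720), Bcl11b (0.867), Foxp1 (0.805), Gnal (0.506) and Rasd2 (0.587). Markers of other cell types were high in each of these libraries, as given in the report, and their part in the low levels was not tested.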

How the results depend on the processing

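Over the alternatives run, 733 values were counted as unchanged and 33 changed sign, all of them differences of single members between ablated mice and controls in the striatum. For a single member, unchanged meant the same direction and the same side of the threshold. With all libraries the largest of these differences was 0.35 on the log2 scale, for Pde1b in the SVZ, well short of 2-fold. Staying on the same side of the threshold therefore says little about how firm a value is. A count of members called was unchanged if none was called in either fit. A member median was unchanged if it moved by less than the SD between control libraries, whatever its sign. Bcl11b changed to 0.019 with limma-voom. Without mice with over 1% Ttr in the SVZ, Rgs9 was 0.014 and Bcl11b 0.043. With mice of the later number series alone, Ppp1r1b was 0.076, Pde10a 0.032, Rgs9 0.13, Bcl11b 0.11, Foxp1 0.069 and Gnal 0.11, and with NestinTK+PBS+ as the only controls they were 0.11, 0.054, 0.27, 0.15, 0.13 and 0.11. Leaving out each library in turn gave -0.25 to 0.082 for Rgs9, -0.089 to 0.033 for Bcl11b, -0.17 to 0.023 for Foxp1 and -0.11 to 0.0088 for Gnal. Over the fits with 1 library left out, the member median in the SVZ ran from 0.12 (without ablated mouse 5) to 0.46 (without ablated mouse 2). In the striatum it ran from -0.13 (without NestinTK+PBS+ mouse 4) to 0.023 (without ablated mouse 2). The striatum median was also above 0 with mice of the later number series alone and with NestinTK+PBS+ as the only controls, beyond that run. Rasd2 in the striatum stayed below 0 in these fits, at -0.62 (edgeR adjusted p = 0.00583) with NestinTK-GCV+ as the only controls, -0.19 (adjusted p = 0.798) with NestinTK+PBS+ alone and -0.29 (adjusted p = 0.528) with mice of the later number series. Single members in the contrasts between the 4 groups are not in this count. Without ablated mouse 2 and NestinTK-GCV+ mouse 3, 6 of 9 SVZ members changed sign for GCV against PBS in NestinTK- mice. In the striatum without NestinTK+PBS+ mouse 4, 6 of 9 members changed sign for GCV against PBS in NestinTK+ mice, 3 for the genotypes under PBS and 3 for the interaction. Without the mice high in Ttr, 1 SVZ member changed sign for the genotypes under PBS. The cause of these shifts was not tested. No paired analysis was possible because the groups hold different mice and replicate numbers follow accession order only. Added after seeing the data were the fits without the SVZ libraries of ablated mouse 2 and NestinTK-GCV+ mouse 3, without the striatum library of NestinTK+PBS+ mouse 4, and with direct and indirect pathway genes as a covariate (Rasd2 -0.44, edgeR adjusted p = 0.105).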

Other observations

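Among markers of other cells in the ablated SVZ, 11 of 11 neuroblast genes were lower than in controls and 5 met the rule of p at most 0.01 and 2-fold in the edgeR fit (Dcx, Sox11, Dlx1, Sp8 and Igfbpl1). Of all SVZ genes 48.1% were higher and 1.59% met the rule. All 8 genes of dividing cells were lower with 2 that met it, all 8 choroid plexus genes with 5, and all 8 ependymal genes with 2. Oligodendrocyte genes were lower in 8 of 8 with a median of -0.33 and none that met it, and septal neuron genes in 5 of 5 with a median of -0.997. Cortical excitatory genes had a median of -0.001. Nos1, an interneuron gene, met the rule as higher, at 1.04. In the striatum 8 of 8 oligodendrocyte genes were lower, with a median of -0.61, and Mag, a myelin protein gene, passed after adjustment (-0.91, edgeR adjusted p = 0.0117). Of all striatum genes 50.5% were higher, 0.694% met the rule and 0.182% passed after adjustment. Single genes met the rule there for astrocytes (Gfap), choroid plexus (Ttr) and interneurons (Pvalb), all lower, and for septal neurons (Dlk1), higher. Direct and indirect pathway genes were higher in 7 of 10 in both tissues and none met the rule. These values are from all 15 libraries of a tissue. Without the 3 mice high in Ttr, the SVZ choroid plexus genes had none that met the rule, the neuroblast genes 5, the dividing cell genes 1 and the ependymal genes 1. Without ablated mouse 2 and NestinTK-GCV+ mouse 3 the median of the SVZ cortical excitatory genes was -3.82, and Nos1 no longer met the rule. Without the striatum library of NestinTK+PBS+ mouse 4, Ttr no longer met the rule there, and 3 oligodendrocyte genes (Mag, Mbp and Cldn11) passed after adjustment, all lower, as did the direct pathway gene Pdyn, higher at 0.66 (edgeR adjusted p = 0.0301). Of all genes in that fit 0.308% passed after adjustment.

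Against the neuroblast list, the members' mean in the striatum had r = -0.57 and rho = -0.72 over 15 libraries, and r was -0.49 without NestinTK-GCV+ mouse 1 and ablated mouse 5. Against the share of reads on Ttr it had r = -0.91 and rho = -0.17, and r was 0.001 without NestinTK+PBS+ mouse 4 and NestinTK-PBS+ mouse 1, so that relation rests on those libraries. Of 10 measures set beside the members' mean in each tissue, these and those given in the report were picked after their values were seen.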
